A study of Mus musculus with 4 samples.

Results

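Ribosomal protein genes and Eif genes, the latter for eukaryotic translation initiation factors and the proteins that bind or regulate them, were examined in macrophages from Pparg wild-type (WT) and Pparg knockout (KO) mice. Members were the probe sets with values that the platform annotation gives 1 gene whose symbol begins with Rpl, Rps or Rplp and a digit, or with Eif and a digit from 1 to 6. The S6 kinase genes (Rps6k) and the eIF2 kinase genes (Eif2ak) were left out. This gave 69 of the 7577 genes measured, on 91 of the 10649 probe sets with values. Of these, 45 belong to 34 ribosomal protein genes and 46 to 35 Eif genes. A further 10 annotated probe sets were blank on all 4 arrays, and for Eif3a and Eif4g3 no other probe set was annotated.

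The WT group and the KO group each had 2 samples, each on 1 Affymetrix array. The mice were on a mixed 129/SV and C57BL/6 background. Both groups received 2.5 ml of 3% thioglycollate into the peritoneum, an irritant that draws macrophages, and were lavaged 3 days later. Cells of both groups adhered in medium with 10% serum for 5 h before a wash and then stayed in 0.5% serum for 24 h, and no agonist is named for either. The labels state neither the age or number of mice, nor which part of Pparg was deleted and in which cells, nor whether the replicates came from separate mice. If they did not, the p-values measure a technical spread only.

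A ribosome has a large subunit, whose proteins are named Rpl or Rplp, and a small subunit, whose proteins are named Rps. To begin translation, the factors eIF1, eIF1A, eIF2, eIF3 and eIF5 prepare the small subunit with its initiator tRNA, the eIF4 group brings it to the capped end of the mRNA, and eIF5B joins the large subunit to it. Many mRNAs for ribosomal proteins and some initiation factors begin with a C and a run of pyrimidines, the terminal oligopyrimidine tract, through which growth signals set how well they are translated. Pparg encodes a nuclear receptor that macrophages use in lipid handling and in restraining inflammatory genes.

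That tract was looked for at the annotated gene starts, as a feature the members may share and which did not enter their choice. Promoter entries in the RefSeq table (GRCm38.p6) were found for 27 of the 34 ribosomal and 30 of the 35 Eif genes. A C at the annotated start followed by at least 4 further C or T was present in 5 of the 27 ribosomal genes (18.5%) and in 2 of the 30 Eif genes (6.67%). Among all 17491 protein-coding genes of the table the share was 2.67%. The 7 starts with a tract are shown with Rplp0, whose annotated start has none at its first base. Further into the Rplp0 window a C does precede 4 pyrimidines (ctcct). An annotated start may differ from the start used in these cells, which was not examined. Each window has 10 bases before the start and 20 from it, on the gene's strand, with the tract in capitals. Positions are chr17:27635225-27635254 (minus) for Rps10, chr17:33955646-33955675 (minus) for Rps18, chr3:90213629-90213658 (minus) for Rps27, chr16:33056472-33056501 (plus) for 1 of the annotated starts of Rpl35a, chr11:114668570-114668599 (plus) for Rpl38, chrX:94212632-94212661 (minus) for Eif2s3x, chr7:108934405-108934434 (plus) for Eif3f and chr5:115559457-115559486 (plus) for Rplp0.
Rps10: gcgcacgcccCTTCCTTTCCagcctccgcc
Rps18: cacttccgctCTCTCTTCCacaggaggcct
Rps27: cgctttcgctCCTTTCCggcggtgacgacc
Rpl35a: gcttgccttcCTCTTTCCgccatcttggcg
Rpl38: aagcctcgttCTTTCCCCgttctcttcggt
Eif2s3x: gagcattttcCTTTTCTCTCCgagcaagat
Eif3f: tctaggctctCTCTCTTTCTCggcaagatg
Rplp0: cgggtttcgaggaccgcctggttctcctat

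The 5 ribosomal tracts run for 7 to 10 bases and both Eif tracts for 11. When a tract could begin anywhere within 20 bases of the start on either side, 22 of 27 ribosomal genes (81.5%) held one, against 13 of 30 Eif genes (43.3%) and 52.9% of all genes. In the window from 250 bases before to 50 after the start, searched on both strands, CCGGAAG (letters bound by ETS factors) stood in 11 of 27 ribosomal genes, 12 of 30 Eif genes and 12.9% of all genes. AAGATGG (letters bound by YY1, which can share AAG with the first) stood in 7 of 27, 6 of 30 and 7.18%. TATAAA stood in 4 of 27, 3 of 30 and 14.8%. These matches are descriptions of sequence and not binding sites.

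Signals of Pparg itself were 61.1 and 73.1 in WT and 43.0 and 40.6 in KO. Both KO arrays were lower, with a log2 difference of -0.52 (SE 0.11, limma adjusted p = 0.00012 in the fit without a filter). Without WT replicate 2 the log2 difference was -0.42 with an adjusted p of 0.14. All 4 signals lay below the median of 12 opposite-strand control rows, which carry probes for the strand the labelled cRNA should not hold, so the probe set is a weak check of the genotype. Signals are array intensities as deposited, and differences are log2(signal + 16) in KO minus WT unless another direction is named. Array medians on this scale ran from 7.25 to 7.30. Of the 17 macrophage marker probe sets, 13 were above the highest opposite-strand control on all 4 arrays, Cd68, Csf1r and Adgre1 among them. The summed signal of all 17 was 25635 and 26463 in WT and 24657 and 28177 in KO.

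No tested ribosomal protein probe set passed the test for a difference between KO and WT. Signals above the filter, a mean above about 111, were present for 33 of the 45 ribosomal probe sets, covering 26 genes. That filter is a percentile of mean signal and lies among the opposite-strand control medians of the arrays (103.8 to 116). Passing it therefore does not establish expression. Of these 33 probe sets, 25 were above the highest opposite-strand control on all 4 arrays. At a Benjamini-Hochberg adjusted p under 0.05 in limma, 0 of the 33 were called, against 3.55% of all 6389 probe sets tested (1.02% higher and 2.54% lower in KO). At an unadjusted p under 0.05 the count was also 0, against 9.47%, but this 0 did not hold under every scaling or with every array left out. The log2 differences ran from -0.16 to 0.24, and the lowest adjusted p was 0.66. Taken over all 33, the 95% intervals reached from 1.30-fold lower to 1.42-fold higher in KO. Their widths come from a trend over all probe sets tested and not from each probe set's own 4 arrays.

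Most of the 33 tested ribosomal differences, none of which passed the test, had the same sign. Of the 12 below the signal filter 9 had the opposite one, as did 6549 of all 10649 probe sets without a filter. The KO mean was higher in 27 of 33 (81.8%), while it was higher in 42.1% of all probe sets tested, and the median log2 difference was 0.06 against -0.02. Both KO arrays exceeded both WT arrays in 7 of 33 (21.2%), against 11.3% of all, and both were lower in 1 (3.03%), against 21.1%. In the other 25 the groups overlapped. The count of 27 depended on single arrays. It was 16 without KO replicate 2 and 18 without WT replicate 1. The median was 0.17 without KO replicate 1 and -0.01 without KO replicate 2.

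**Figure D1:**
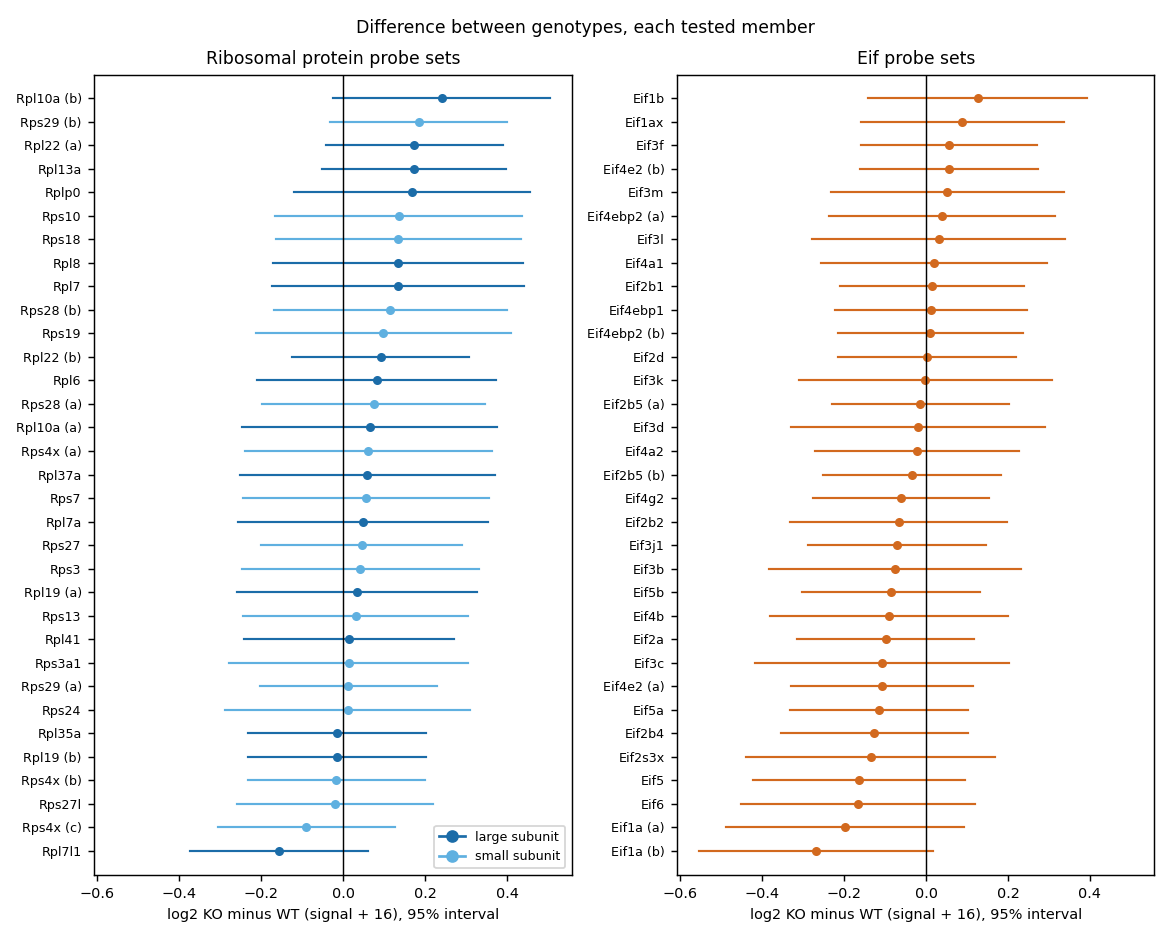
Log2 difference between KO and WT, log2(signal + 16), for each of the 33 ribosomal (left) and 33 Eif (right) probe sets tested, with 95% intervals from limma; letters after a symbol mark several probe sets of 1 gene, (a) the brightest. All 66 intervals include 0; 27 ribosomal points lie to the right of it and 21 Eif points to the left.

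The 16 large-subunit probe sets had a median log2 difference of 0.07, with 13 higher in the KO mean. Both KO arrays exceeded both WT arrays in 5 (31.25%), against 11.3% of all probe sets tested, and were below both in 1 (6.25%), against 21.1%. Rplp0, the protein at the base of the ribosomal stalk that recruits elongation factors, had signals of 4745 and 4786 in WT and 4915 and 5845 in KO. Both KO arrays were above both WT arrays, but KO replicate 1 exceeded WT by little and the KO arrays stood further apart than the group means. Its log2 difference was 0.17 (SE 0.15, limma adjusted p = 0.98).

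Rpl10a, a protein of the mobile stalk near the exit site for spent tRNA, had the largest positive difference of the family on the dimmer of its probe sets. Signals there were 365.3 and 361.2 in WT and 410.3 and 454.5 in KO, without overlap, with a log2 difference of 0.24 (SE 0.13, limma adjusted p = 0.66). The other probe set of Rpl10a gave 1206 and 1333 in WT and 1191 and 1479 in KO. There the KO arrays enclosed the WT arrays, and the log2 difference was 0.06.

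Rpl13a, which besides its place in the ribosome is known for a translation-silencing role in interferon-treated myeloid cells, had signals of 201.2 and 211.1 in WT and 216.9 and 253.2 in KO. Rpl22, an RNA-binding protein of the large subunit, had 128.8 and 116.6 in WT and 140.3 and 140.2 in KO on the probe set with the larger difference. On these probe sets the genotypes did not overlap, and both log2 differences were 0.17, with limma adjusted p of 0.84 for Rpl13a and 0.80 for Rpl22. The other Rpl22 probe set gave 117.1 and 131.8 in WT and 131.0 and 136.0 in KO, which overlapped (0.09). Neither Rpl22 probe set was above the highest opposite-strand control on any array. Rpl7 and Rpl8 each had a log2 difference of 0.13. The Rpl7 signals were 2436 and 2295 in WT and 2502 and 2693 in KO, again without overlap, whereas in Rpl8 KO replicate 1 (2565) lay between the WT arrays (2447 and 2661).

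Rpl7l1, a paralog of Rpl7 that works in ribosome assembly, was the one ribosomal probe set among the 33 tested with both KO arrays below both WT arrays. Its signals were 138.2 and 124.2 in WT and 116.3 and 115.5 in KO, a log2 difference of -0.16 (SE 0.11, limma adjusted p = 0.89). On no array was it above the highest opposite-strand control. Next lowest among tested large-subunit probe sets were the dimmer probe set of Rpl19 at -0.02 and Rpl35a at -0.01, both of which changed sign under every other scaling between arrays. The brighter Rpl19 probe set had a log2 difference of 0.03. Rpl41, which encodes the smallest ribosomal protein, had signals of 10827 and 12018 in WT and 10649 and 12463 in KO, so the KO arrays enclosed the WT arrays. Its log2 difference of 0.01 turned negative with cyclic loess scaling. Rpl6, whose signals were 4179 and 4472 in WT and 4243 and 4934 in KO, overlapped too, with KO replicate 1 between the WT arrays (0.08).

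Among the 17 small-subunit probe sets the median log2 difference was 0.05, with 14 higher in the KO mean. Both KO arrays exceeded both WT arrays in 2 (11.8%), near the 11.3% of all probe sets tested, and the other groups overlapped. Rps29, a small zinc-binding protein, had signals of 119.8 and 115.7 in WT and 137.9 and 134.0 in KO on 1 probe set, a log2 difference of 0.18 (SE 0.11, limma adjusted p = 0.74). Its other probe set gave 130.2 and 141.1 in WT and 149.7 and 125.0 in KO and a log2 difference of 0.01. The KO arrays were thus above WT on the one and on either side of WT on the other. Neither Rps29 probe set was above the highest opposite-strand control on any array.

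Rps10, 1 of the tract genes shown, had signals of 3030 and 3176 in WT and 3315 and 3504 in KO. Rps18, another, had 3367 and 3648 in WT and 3582 and 4136 in KO. The Rps10 arrays did not overlap while the Rps18 arrays did, and the log2 difference was 0.14 (SE 0.15) for Rps10 and 0.13 (SE 0.15) for Rps18, with a limma adjusted p of 1.00 for each. Across the 4 tested ribosomal probe sets of genes with a tract at an annotated start the median was 0.09. Across the 25 of genes with an entry but no tract at that base, which may hold one nearby, it was 0.06. In the Eif genes these medians were -0.04 over 2 and -0.02 over 26 probe sets.

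Rps28 was measured by a pair of bright probe sets, with log2 differences of 0.12 and 0.07. On the first, signals were 5108 and 5417 in WT and 5033 and 6454 in KO, and on the second 7650 and 7653 in WT and 7254 and 8949 in KO. On both, KO replicate 1 was the lowest and KO replicate 2 the highest of the 4 arrays. The same order held for Rps3, a protein at the mRNA entry channel, with 4624 and 5081 in WT and 4439 and 5613 in KO (0.04).

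Among tested small-subunit probe sets, the dim ones of Rps4x, the X-linked form of S4, had differences of -0.09 and -0.02. The bright Rps4x probe set gave 3210 and 3280 in WT and 3229 and 3551 in KO and a log2 difference of 0.06. Rps27l, a paralog of Rps27 that p53 induces, had 249.1 and 310.8 in WT and 239.6 and 313.9 in KO (-0.02). Its replicates differed far more within each genotype than the genotypes did. Rps24, which like Rps19 is mutated in Diamond-Blackfan anaemia, had 3417 and 3681 in WT and 3442 and 3711 in KO (0.01). The Rps27l difference and the smaller Rps4x one turned positive under every other scaling, and the Rps24 difference turned negative after quantile normalisation. Rps19 itself had 1335 and 1549 in WT and 1425 and 1663 in KO (0.10), with overlapping groups.

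**Figure D2:**
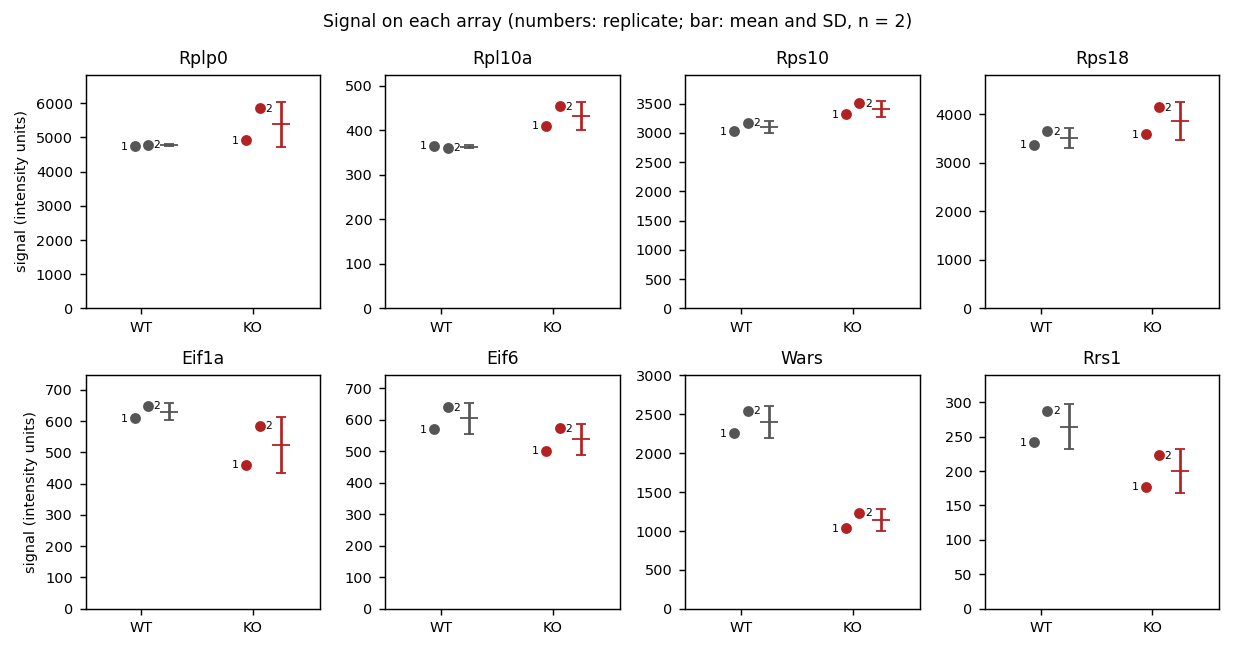
Signal on each array, on linear axes from 0, for 4 ribosomal genes (Rplp0, the dimmer Rpl10a probe set, Rps10, Rps18), 2 Eif genes (the Eif1a probe set with the lower signals, Eif6) and 2 other genes of translation (the brightest Wars probe set, Rrs1); points are arrays, with replicate numbers, and bars the mean and SD (n = 2). The KO points of Wars (1037 and 1238) lie well below its WT points (2255 and 2545), while in the Rps18 and Eif6 panels the groups overlap.

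The ribosomal direction was set beside brightness and single arrays. A probe set's signal depends on its probes, so brightness here does not rank mRNAs. Of the 33 ribosomal probe sets, 19 (57.6%) lay in the brightest decile of those tested. In these 19 the KO mean was higher in all 19, with a median log2 difference of 0.06, compared with 51.6% and 0.01 for the 639 probe sets of that decile. KO replicate 2 exceeded KO replicate 1 in all 19, with a median log2 difference between these arrays of 0.23, but this was so for 96.9% of the decile too, with a median of 0.21. The corresponding median for WT replicate 2 over WT replicate 1 was 0.11 in the 19 and 0.07 in the decile. Without KO replicate 2 the KO mean was higher in 5 of the 19, against 23.8% of the decile. Without KO replicate 1 it was higher in all 19, against 72.5%, and without WT replicate 1 in 11, against 41.2%. With quantile normalisation, cyclic loess and median centring it was higher in 17, 18 and 19 of them, against 59.9%, 51.8% and 57.3% of the decile. In the 14 ribosomal probe sets below that decile the median log2 difference was 0.02, with 8 of 14 higher. Under each of the 3 other scalings it was 0.05, with 12 of 14 higher. Both KO arrays exceeded both WT arrays in 4 of these 14 (28.6%) and were below both in 1. In the 19 of the brightest decile these counts were 3 (15.8%, against 14.4% of the decile) and 0. Whether the differences between arrays of a genotype account for the ribosomal direction was not tested.

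**Figure D3:**
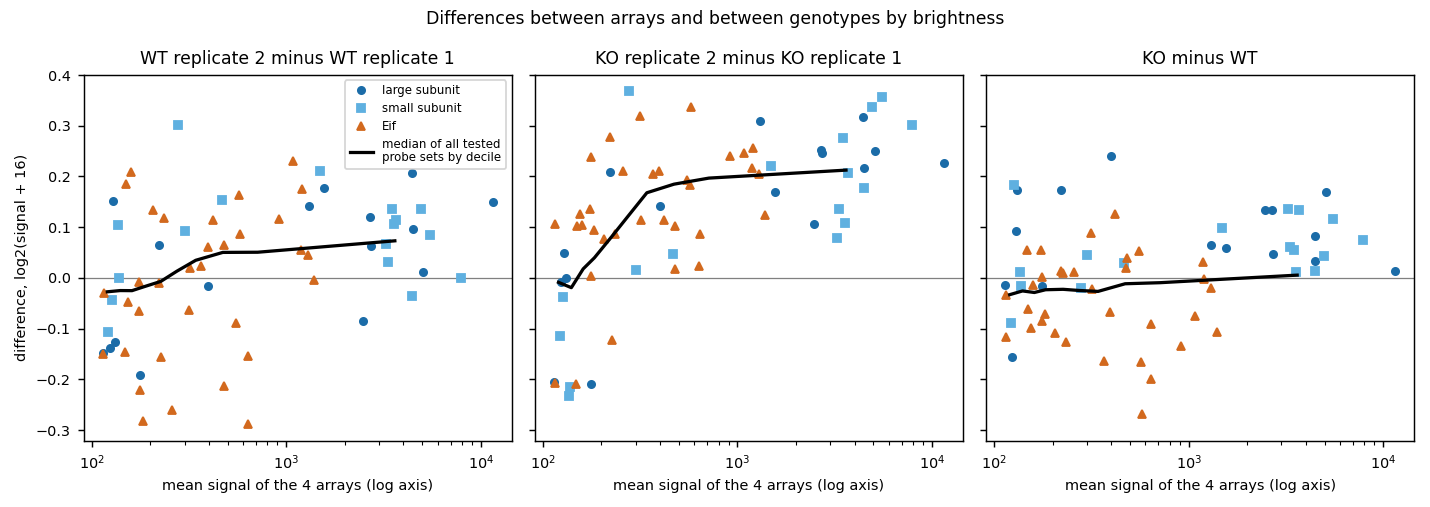
Log2 differences of WT replicate 2 from WT replicate 1 (left), KO replicate 2 from KO replicate 1 (middle) and KO from WT (right) against mean signal on a log axis, for the 33 ribosomal (circles, squares) and 33 Eif (triangles) probe sets, with the median of all 6389 tested probe sets by brightness decile as a line. In the middle panel the line climbs from -0.01 in the dimmest decile to 0.21 in the brightest, and bright ribosomal probe sets scatter around it; in the right panel it stays between -0.03 and 0.01.

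No tested Eif probe set passed the test either. Of 46 Eif probe sets 33 were tested, covering 29 genes. At an adjusted p under 0.05 limma called 0 of them, against 3.55% of all probe sets tested. At an unadjusted p under 0.05 the Eif count was also 0, against 9.47%. That second count was 1 after quantile normalisation and 1 after cyclic loess, against 15.2% and 15.1% of all. The KO mean was lower in 21 of 33 (63.6%), near the 57.9% of all probe sets tested, and the median log2 difference was -0.03. With quantile normalisation, cyclic loess and median centring it was lower in 17 of 33 each time, with medians of -0.00, -0.01 and -0.01, while over all probe sets the KO mean was then higher in 54.4%, 51.7% and 51.7%. Both KO arrays were below both WT arrays in 7 (21.2%), equal to the background of 21.1%, and above in 1 (3.03%), against 11.3%. The differences ran from -0.27 to 0.13, and the 95% intervals reached from 1.47-fold lower to 1.31-fold higher in KO. The KO mean was higher in 12 of 33, but in 5 without KO replicate 2 and in 18 without KO replicate 1, with medians of -0.12 and 0.02.

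Factors that act in scanning and start-codon choice held the lowest and the highest difference among tested Eif probe sets. Eif1a, which encodes eIF1A, had signals of 610.2 and 648.9 in WT and 460.7 and 585.9 in KO on 1 probe set, both KO arrays being lower. Its log2 difference was -0.27 (SE 0.15, limma adjusted p = 0.62). Without KO replicate 2 it was -0.44 with an adjusted p of 0.037, the one Eif call under any array left out. The other Eif1a probe set had 753.7 and 614.4 in WT and 586.1 and 595.7 in KO (-0.20), again without overlap. Eif1ax, the X-linked gene for eIF1A, had 311.7 and 297.6 in WT and 289.2 and 364.7 in KO, so KO lay on both sides of WT (0.09). It was -0.07 without KO replicate 2. Eif1b, a paralog of the start-codon factor eIF1, had 382.6 and 415.3 in WT and 419.0 and 454.5 in KO. These groups just failed to overlap, with a log2 difference of 0.13 (SE 0.14, limma adjusted p = 1.00).

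The 8 probe sets of the Eif2 genes, which encode subunits of eIF2, its exchange factor eIF2B and relatives, had a median of -0.05, with 2 higher and 6 lower in the KO mean. Eif2s3x, the X-linked gamma subunit of eIF2 and 1 of the tract genes shown, had 915.3 and 994.0 in WT and 796.7 and 944.3 in KO (-0.13). KO replicate 2 fell between the WT arrays. Eif2b4, a subunit of eIF2B, had 234.9 and 256.2 in WT and 216.3 and 230.8 in KO (-0.13), without overlap.

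The eIF3 complex binds the small subunit and holds the mRNA, and its 8 probe sets had a median of -0.01. Of these, 5 lay in the brightest decile, and KO replicate 2 exceeded KO replicate 1 in all 5. Eif3c had 1446 and 1442 in WT and 1282 and 1399 in KO (-0.11, SE 0.16), both KO arrays being lower. Eif3d had 1283 and 1325 in WT and 1197 and 1381 in KO (-0.02), and Eif3k had 1124 and 1271 in WT and 1091 and 1306 in KO (-0.00). In both the KO arrays enclosed the WT arrays, and both differences turned positive after quantile normalisation and after median centring. Eif3f, with the tract shown, had 153.1 and 136.8 in WT and 163.6 and 139.4 in KO (0.06). Those groups overlapped, and the difference was -0.05 without KO replicate 1 and -0.02 without WT replicate 2.

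The Eif4 genes cover the cap-binding complex and its regulators, and their 9 probe sets had a median log2 difference of 0.01, with 5 higher and 4 lower. Eif4ebp1, which encodes the mTOR-regulated repressor of the cap-binding protein eIF4E, had 281.1 and 231.9 in WT and 238.3 and 278.4 in KO (0.01). Eif4a1, the RNA helicase of the complex, had 510.7 and 438.3 in WT and 476.8 and 483.1 in KO (0.02). The WT arrays stood on both sides of KO in each. Eif4e2, a cap-binding protein that represses translation, gave 171.9 and 170.8 in WT and 169.7 and 188.0 in KO on 1 probe set (0.06) and 203.6 and 225.1 in WT and 191.8 and 203.2 in KO on the other (-0.11). These probe sets had opposite signs and neither passed the test.

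The 3 Eif5 probe sets were all lower in the KO mean, with a median of -0.12. Eif5, the protein that makes eIF2 hydrolyse its GTP, had 384.4 and 391.0 in WT and 319.5 and 370.8 in KO. Both KO arrays were lower, with a log2 difference of -0.16 (SE 0.13, limma adjusted p = 0.95). Eif6, which keeps the free large subunit from joining too early, had 569.0 and 639.6 in WT and 501.9 and 572.0 in KO. Here KO replicate 2 was above WT replicate 1, and the log2 difference was -0.17 (SE 0.15, limma adjusted p = 0.98).

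Several probe sets of 1 gene could be compared with each other. The 10 member genes with several tested probe sets had differences that lay 0.02 to 0.18 apart on the log2 scale, and in 3 genes the signs differed. None was 0.3 or more apart, but the widest gaps were as large as most of the members' differences themselves.

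The remaining 25 members, 12 ribosomal and 13 Eif, were below the signal filter. All 25 were under the highest opposite-strand control on all 4 arrays, and 9 ribosomal and 12 Eif probe sets were under the median of these controls. The ribosomal probe sets were for Rpl32, Rpl38, Rpl39, Rpl39l, Rps14, Rps15, Rps20, Rps24, Rps4l and Rps4x, and the Eif ones for Eif1ax, Eif2d, Eif2s2, Eif2s3y, Eif3b, Eif3e, Eif4b, Eif4e, Eif4ebp2, Eif4enif1, Eif4h and Eif5b. In the fit without a filter the 12 ribosomal probe sets had a median log2 difference of -0.13, with 9 lower in the KO mean, 5 with both KO arrays below both WT arrays and 3 at an unadjusted p under 0.05, all of them lower. The 13 Eif probe sets had a median of -0.08, with 8 lower, 5 with both KO arrays below both WT arrays and 1 at an unadjusted p under 0.05. That 1 was Eif2s3y, the Y-linked gamma subunit of eIF2, with 94.3 and 99.6 in WT and 78.6 and 74.2 in KO (-0.29, limma adjusted p = 0.16). Over all 10649 probe sets of the fit without a filter, 6549 were lower in the KO mean and the median was -0.03. These include the 6389 tested, of which 3702 were lower. An unadjusted p under 0.05 was reached by 10.6% of them. Among tested probe sets of the dimmest 2 deciles, both KO arrays were below both WT arrays in 22.6%. Those deciles hold none of the 25 members, and the share over all probe sets below the filter was not computed. In the fit without a filter, which called 3.11% of the 10649 (2.27% lower in KO), 1 member was called. This was Rpl38, a large-subunit protein with a tract shown, on a probe set with signals of 32.4 and 38.0 in WT and 20.7 and 23.8 in KO. Both KO arrays were lower, with a log2 difference of -0.42 (limma adjusted p = 0.0044), at signals that were below the control median on every array. The other Rpl38 probe set gave 87.4 and 105.7 in WT and 94.6 and 87.8 in KO (-0.07). Rpl39, at 107.1 and 106.0 in WT and 82.5 and 78.2 in KO, had a log2 difference of -0.35 that missed the threshold (limma adjusted p = 0.052). Rps15, the third of those at an unadjusted p under 0.05, had 36.9 and 39.4 in WT and 31.9 and 29.3 in KO (-0.22, limma adjusted p = 0.42).

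Other genes of translation were taken from lists chosen from general knowledge. In 5 of the 7 lists no probe set was called in either direction. Elongation and release factors had 15 probe sets tested and a median log2 difference of -0.04. The ribosome-associated genes outside the symbol rule had 4 and a median of 0.11. Control by mTOR, S6 kinase and eIF2 kinases had 16 and a median of -0.08, mRNA-binding partners of initiation had 9 and a median of 0.01, and mitochondrial ribosomal proteins had 55 and a median of -0.01. At an unadjusted p under 0.05 these lists held, in the order given, 1, 0, 2, 1 and 0 probe sets. The median of all probe sets tested was -0.02.

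Named from these 5 lists are the genes with the smallest p. Gspt2, a release factor GTPase, had a log2 difference of 0.26 (limma adjusted p = 0.27), and Etf1, the release factor that reads stop codons, -0.16 (adjusted p = 0.98). Btf3 and Naca, the subunits of the nascent polypeptide-associated complex, had 0.16 and 0.15 (adjusted p = 1.00 for each). Neither these nor the following passed the test. Paip2, an inhibitor of poly(A)-binding protein, had 0.23 (adjusted p = 0.42), and Ddx3x, an RNA helicase, 0.12 (adjusted p = 1.00). Mrpl45 had -0.22 (adjusted p = 0.61) and Mrpl37 -0.19 (adjusted p = 0.86). Without KO replicate 2 the Mrpl45 adjusted p was 0.0496.

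Larp1, a protein that binds the capped tract of ribosomal protein mRNAs, had signals of 518.0 and 555.5 in WT and 399.3 and 447.1 in KO. Both KO arrays were lower, with a log2 difference of -0.33 (limma adjusted p = 0.28). It passed the threshold after quantile normalisation (adjusted p = 0.037) and cyclic loess (adjusted p = 0.027). Ddit3, a transcription factor of the eIF2-kinase stress response, had 490.5 and 515.9 in WT and 364.5 and 455.8 in KO, again without overlap. Its log2 difference was -0.29 (limma adjusted p = 0.43), and without KO replicate 2 the adjusted p was 0.023.

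Among the 23 aminoacyl-tRNA synthetase probe sets 0 rose and 3 fell, and all 3 belong to Wars, the interferon-inducible tryptophan enzyme. The brightest had signals of 2255 and 2545 in WT and 1037 and 1238 in KO, a log2 difference of -1.07 (limma adjusted p = 2.9e-09). The others had log2 differences of -1.10 (limma adjusted p = 4.01e-10) and -0.99 (limma adjusted p = 3.84e-14). On every Wars probe set the KO arrays lay below the WT arrays, and without WT replicate 2 the brightest missed the threshold (adjusted p = 0.16). The list's median was -0.17, with 20 of 23 lower.

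Of the 33 ribosome biogenesis and nucleolus probe sets 0 rose and 1 fell, with a median of -0.04 and 25 lower in the KO mean. This was Rrs1, a factor in large-subunit assembly, with 241.6 and 287.4 in WT and 177.5 and 222.9 in KO. The arrays did not overlap, and the log2 difference was -0.38 (SE 0.12, limma adjusted p = 0.033). The call was lost without WT replicate 1 (adjusted p = 0.25), WT replicate 2 (1.00) or KO replicate 1 (0.43), after quantile normalisation (0.0500493, just over the threshold) and median centring (0.094), and in the fit without a filter (0.059). Noc4l, another assembly factor, had -0.35 (limma adjusted p = 0.17). It was called after cyclic loess (adjusted p = 0.042) and without KO replicate 2 (adjusted p = 0.012).

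**Figure D4:**
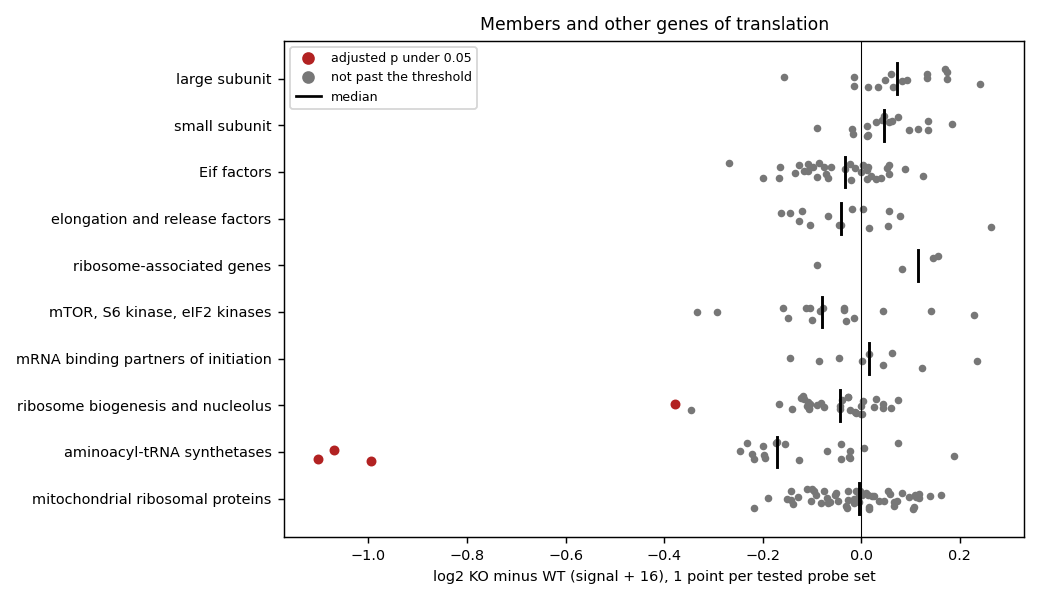
Log2 difference between KO and WT, log2(signal + 16), for each tested probe set of the large and small subunits, the Eif genes and 7 lists of other genes of translation, with the median of each as a black bar; points are shifted up and down at random for legibility. The red points, past an adjusted p of 0.05 in limma, are 3 Wars probe sets and Rrs1; no member is red.

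Markers of other cells a lavage can hold were set beside these values. The fibroblast and mesothelial markers summed to 2683 and 2669 in WT and 3240 and 3582 in KO, with 7 of 15 probe sets below the control median on all arrays. Of 7 tested probe sets 1 was called higher (Dcn, log2 difference 0.75), and 3 were after quantile normalisation. The KO mean was higher in 6 of the 7 and lower in 1, with a median log2 difference of 0.27 and 4 at an unadjusted p under 0.05. Neutrophil markers summed to 2324 and 2463 in WT and 2147 and 2141 in KO, with S100a8 called lower (-0.58). One macrophage marker, Mertk, was called lower (-0.63). In the B cell, T and NK cell, eosinophil, mast cell and basophil, dendritic cell and erythroid lists 0 probe sets were called. In such bulk RNA, fewer cells of a type and less RNA per cell cannot be told apart, and the part of other cells in the members' values was not tested.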

How the data were processed

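Macrophage RNA of 2 WT and 2 KO samples was hybridised to 1 Affymetrix array each, from 10 µg of total RNA per the labels' protocols. The deposited values are linear intensities, 1 for each probe set on each array, judged from the values themselves. The authors' probe summary, background correction and scaling are not given in these sources. Of 12488 rows 1780 were blank and 59 were controls.

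Values were used as deposited, since array medians lay within 0.1 of each other on the log2(intensity + 16) scale. A filter at the 40th percentile of mean signal left 6389 probe sets, which were compared with limma 3.58.1 in R 4.3.3 (lmFit, eBayes with intensity trend), two-sided, with Benjamini-Hochberg adjustment over all of them. Moderation was complete (infinite prior degrees of freedom): the trend alone set each spread, on which very small p-values rest. The script was tested on simulated data. The number of arrays limits the precision.

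Named were Pparg, members past the threshold, in each subunit and in Eif the 4 highest, 4 lowest and 3 brightest probe sets, members below the filter, and in each list the genes past the threshold and the 2 with the smallest p. Other members (Rpl7, Rpl8, Rps19, Eif2s3x, Eif2b4, Eif4ebp1, Eif4a1) were added after their values were seen. The members and lists were chosen with earlier results of these data known. Alternatives covered scaling, filter, pseudocount, moderation, threshold, probe sets per gene, the replicate block and each array left out. A leave-out fit leaves 1 array in a group, whose spread is assumed to be that of the other. Promoter sequences are RefSeq's (GRCm38.p6). Symbols of all 91 members matched the gene name table.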

Additional observations from a re-analysis of the deposited data

How the results depend on the processing

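Over all 6389 probe sets, limma called 227 (65 higher and 162 lower in KO), but 419 after quantile normalisation (170 higher, 249 lower), 435 after cyclic loess (159 higher, 276 lower), 90 with a 1.5-fold rule and 54 to 327 with 1 array left out. Without moderation it called 0 of them (388 at an unadjusted p under 0.05). Among the 33 ribosomal probe sets the count was 0 under all alternatives but the replicate block with quantile normalisation, where it was 5 (Rplp0, Rpl10a, Rps19, Rpl8 and Rpl7, all higher, where 7.15% of all probe sets were called higher). Without a filter it was 1 of 45 (Rpl38, not among the 33). At an unadjusted p under 0.05 the ribosomal count was 6 after quantile normalisation, 6 after cyclic loess and 14 with block and quantile normalisation. The Eif counts were 1, 1 and 4, and the shares of all probe sets 15.2%, 15.1% and 22.9%. Among the 19 ribosomal probe sets of the brightest decile these shares were 21.1%, 21.1% and 52.6%, against 37.7%, 35.8% and 51.0% of that decile. With block and quantile normalisation 4 of the 19 were called, against 240 of the 639 in the decile, in either direction. The Eif count was 1 of 33 with block and quantile normalisation (Eif1a, lower, where 7.18% of all were called lower), and ran from 0 to 1 with 1 array left out. With 1 array left out the ribosomal median ran from -0.0070 to 0.17 and the Eif median from -0.12 to 0.019. Pparg kept a log2 difference of -0.52 without moderation (adjusted p = 0.74) and under the 1.5-fold rule, which it missed. Pseudocounts of 1 and 64 gave -0.66 and -0.31, and the difference ran from -0.62 to -0.42 with 1 array left out. The labels share replicate numbers between genotypes, but 2 pairs do not establish pairing. Same-numbered arrays deviated from their group means together with a correlation of 0.42 (0.37 after quantile normalisation), and the replicate block alone raised the count of calls from 227 to 480 and, with quantile normalisation, to 916, without a call among the members from the block alone. Causes of these changes were not tested. With the settings of the report, the smallest called log2 difference was 0.35 in size over all probe sets and 0.45 in the brightest decile.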

Other observations

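A further 37 probe sets join 1 of 33 ribosomal protein genes with other genes or pseudogenes and were not counted as members. Of the 33 that were tested, 0 were called by limma, against 3.55% of all tested, and 0 had an unadjusted p under 0.05, against 9.47%. Their median log2 difference was 0.07. The KO mean was higher in 30 (90.9%), against 42.1% of all and 51.6% of the brightest decile, in which 24 of them lay. KO replicate 2 exceeded KO replicate 1 in 31 of these 33 (93.9%), against 71.0% of all and 96.9% of that decile.

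The control rows for 18S ribosomal RNA had signals on the 5′ probe set of 55.1 and 52.6 in WT and 49.5 and 47.1 in KO. The 3′ probe set gave 135.7 and 127.7 in WT and 125.7 and 105.3 in KO, and the middle one 71.5 and 59.4 in WT and 62.8 and 66.3 in KO. The KO arrays were lower at both ends and overlapped WT in the middle, and these rows were not tested. The 5′ and middle signals were below the median of the opposite-strand controls on every array. So was the 3′ signal of KO replicate 2 (105.3 against 106.65).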
